A study of Ovis aries with 16 samples.

Results

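The miRNAs of the miR-10, miR-99 and miR-125 families that carry a row in the deposited miRNA table are MIR10A, MIR10B, MIR99A and MIR125B. They were taken by name, and all 4 were found among the 105 miRNAs of the table. Small RNA was sequenced from the liver and a thigh muscle (vastus lateralis) of 8 Suffolk ewes about 21 months old. The mothers of 4 sheep (animals 910, 918, 977 and 984) were given bisphenol A (BPA), an oestrogen-like plastics monomer, in corn oil, at 0.5 mg per kg each day by injection under the skin, between days 30 and 90 of pregnancy. Those of the 4 control sheep (902, 908, 924 and 928) received corn oil alone over the same period. All 8 offspring were fasted for 48 hours and had their cycles synchronized with 2 prostaglandin injections before sampling, so both groups share these treatments. Each tissue of each animal gave 1 library.

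The miR-10 genes lie in the HOX clusters, where they are transcribed with HOX genes, and the mature miR-10a and miR-10b are nearly identical in sequence. The miR-99 family resembles miR-10 in sequence and is known in human cells to repress MTOR, a kinase of the growth response to nutrients and insulin. miR-125 is the vertebrate relative of lin-4, the first miRNA described in Caenorhabditis elegans, and in mouse muscle miR-125b is known to repress IGF2, a growth factor. In mammals the miR-99 and miR-125 genes sit in clusters together with let-7 genes. In the sheep reference gene table MIR10A lies within the span of HOXB3 and MIR10B within that of HOXD4. MIR99A neighbours MIRLET7C, and MIR125B lies within a lncRNA locus, LOC105602212. That table names a single MIR125B gene, and reads from an identical second copy elsewhere in the genome could not be told apart. The mature miR-10a and miR-10b are so alike that their counts are likewise uncertain to the extent that the authors' counting could split them.

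The values below are the deposited normalized counts, that is, reads scaled by a size factor of their library. The size factors had been set in each tissue alone, so levels are compared between tissues only after rescaling or as ratios within a library. miRNA reads numbered 94393 to 240815 in control livers and 578150 to 1383538 in BPA livers. In muscle they numbered 471691 to 559705 in controls and 596919 to 1044886 in BPA animals. In control livers snRNA reads came to between 12.4 and 41.2 per 100 miRNA reads, and in BPA livers to between 0.137 and 0.279. Depth and library make-up thus differed between the liver groups. Results with all libraries thinned to equal depth are given where they bear on a value, and the part of library make-up was not tested. The tissue labels were checked with marker miRNAs. Striated-muscle MIR133 was at 115 to 717 in liver and at 244661 to 373488 in muscle, whereas hepatocyte MIR148A and MIR194 together were at 40787 to 66109.5 in liver and at 1311 to 2028 in muscle.

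MIR99A was the most abundant of the 4 miRNAs in both tissues. It held 10.2% ± 1.0 of the miRNA reads in control livers and 3.76% ± 0.39 in control muscle (SD, n = 4), and ranked 3 and 5 of 105 by mean value. MIR125B held 1.06% ± 0.31 in control livers and 1.96% ± 0.081 in control muscle. MIR10B and MIR10A were scarcer, at 0.0589% ± 0.0789 and 0.0938% ± 0.0335 in control livers. In control muscle MIR10B reached 0.419% ± 0.0558, while MIR10A was at 0.0666% ± 0.0145. These shares are not corrected for length. A share also falls where another miRNA takes many reads, as MIR133 did in control muscle, at 318172 to 373488. Shares in liver and muscle therefore do not give the difference in level, which is given below on rescaled values. Ranges of MIR10A and MIR10B overlapped in control liver, while all other neighbours in the order were apart in every control library of the tissue. In bulk tissue, a change in the number of cells of a type and a change in RNA per cell cannot be told apart.

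**Figure D1:**
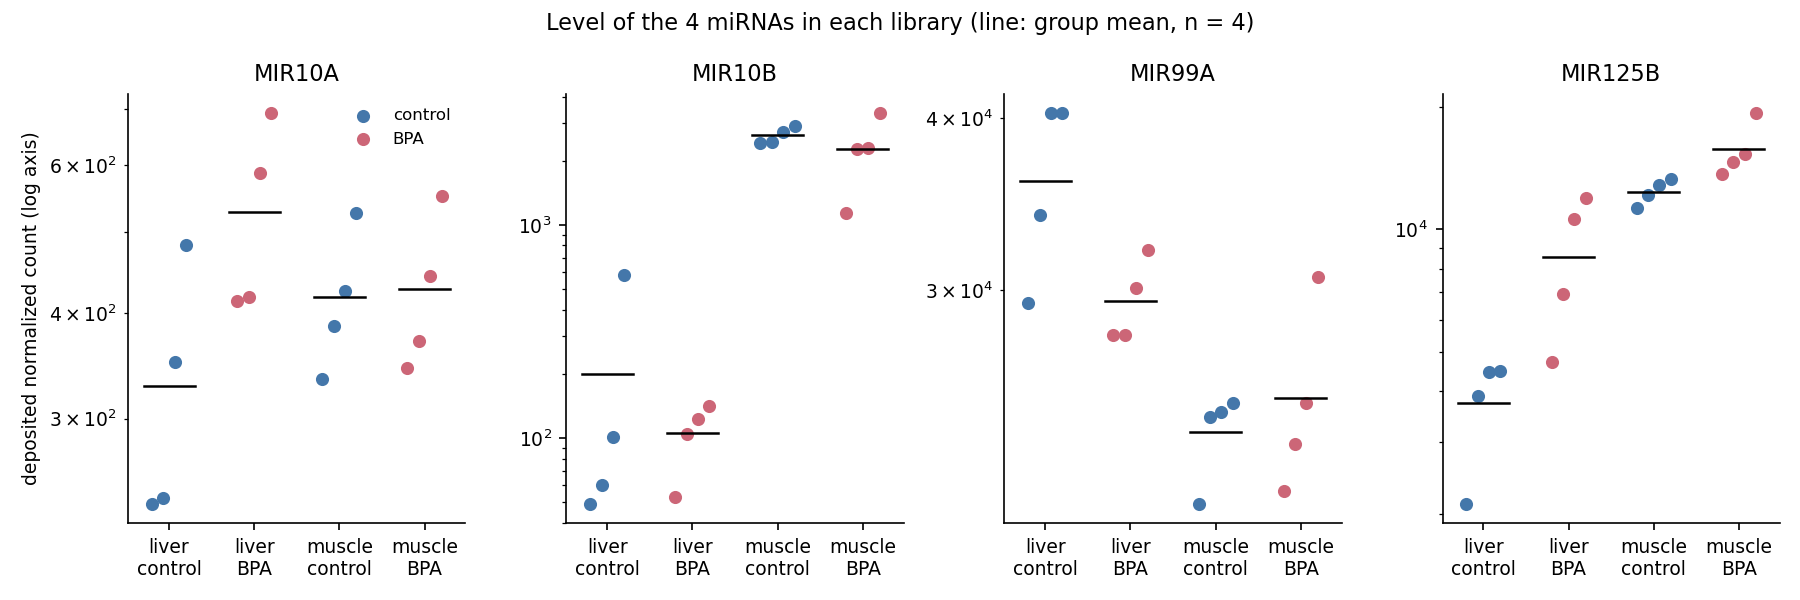
Deposited normalized count (log axis, with its own range in each panel) of MIR10A, MIR10B, MIR99A and MIR125B in each library, by tissue and treatment; points are libraries and lines are means of 4. MIR10B is at 49.2 to 584 in liver and at 1139 to 3347 in muscle, and MIR125B is higher in all 4 BPA livers than in any control liver; liver and muscle values were scaled separately.

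In BPA livers MIR125B was higher than in control livers. Its values were 2116, 4451, 4485 and 3885 in control livers 902, 908, 924 and 928. They were 11927, 10611, 6934 and 4716 in BPA livers 910, 918, 977 and 984. All BPA livers thus lay above all controls, with liver 984 just above the highest control and livers 910 and 918 farthest away. The log2 fold change was 1.16 ± 0.32 (SE; limma, BH-adjusted p = 0.0361 over 78 miRNAs). Of the 4 miRNAs it was the 1 called, where 11.5% of all tested miRNAs were called in liver, 6.41% as higher and 5.13% as lower. The groups did not overlap for 16.7% of the tested miRNAs, and BPA lay above control for 6.41%.

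The call for MIR125B in liver depended on single animals. Without control 902 the limma adjusted p was 0.0658, without BPA 910 it was 0.136, without BPA 918 it was 0.106 and without BPA 977 it was 0.0578 (2.69e-05 to 0.296 over all alternatives). With reads thinned to the shallowest library it was 1.16 and still called (limma adjusted p = 0.0300). The fold change stayed positive in each of these fits, at 0.91 to 1.42 on the log2 scale when any 1 liver was left out. As a share of miRNA reads, MIR125B was at 1.06% ± 0.31 among controls against 2.44% ± 0.89 after BPA (two-sided exact permutation test, p = 0.0286, which 4 against 4 cannot go below, and 0.0762 after adjustment over 8 tests).

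MIR10A in liver was at 349.8, 483, 241 and 238 in controls 902, 908, 924 and 928 and at 588, 414, 419 and 692 in BPA animals 910, 918, 977 and 984. The groups overlapped through control 908. Its log2 fold change of 0.71 ± 0.30 did not pass (limma adjusted p = 0.158). With 1 size factor over the 4 deposited tables it was 2.18 and passed (limma adjusted p = 4.86e-04; up to 0.392 over the other alternatives), where the median of all miRNAs was 1.51 and 68 miRNAs were called. MIR10A reads numbered 75 to 326 in control livers.

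MIR99A in liver was at 29373, 40364, 34011 and 40338 in controls and at 32059.5, 30087, 27833 and 27834 in BPA animals. The groups overlapped only because control 902 was lower than BPA livers 910 and 918. Its log2 fold change of -0.28 ± 0.15 did not pass (limma adjusted p = 0.263). With 1 size factor computed over all 4 deposited tables the value was 1.19, where the median of all miRNAs was 1.51, so the direction is relative to other miRNAs. As a share of miRNA reads it was 10.2% ± 1.0 among controls against 8.47% ± 0.33 after BPA, with no overlap (exact permutation p = 0.0286, adjusted 0.0762). On deposited values the liver groups did not overlap for 16.7% of the tested miRNAs, and no such rate was computed for shares.

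MIR10B in liver was at 584, 101, 49.2 and 60.2 in controls 902, 908, 924 and 928 and at 52.8, 141, 104 and 123 in BPA animals 910, 918, 977 and 984. Control 902 stood alone above all other livers, and the rest of the controls lay at or below most BPA livers. The log2 fold change was -0.22 ± 0.63 with all livers and 0.56 without control 902 (limma adjusted p = 0.907 and 0.403; 0.0378 to 0.988 over all alternatives), and it was 0.079 without BPA liver 910, so no direction can be given. These values rest on 167, 68, 33 and 19 reads in controls 902, 908, 924 and 928 and on 199 to 237 in BPA livers. Control 902 had 0.177% of its miRNA reads on MIR10B (95% exact binomial interval 0.151 to 0.206), against 0.0282% in control 908 (0.0219 to 0.0358). The intervals cover counting error only.

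MIR133, the muscle marker, was also highest in control liver 902, at 717, followed by BPA liver 984 at 574, with 115 to 164 in the other livers. MIR133 of liver 902 came to 0.207% of the mean of control muscle, while its MIR10B came to 22.2% of the mean of control muscle. In liver 984 MIR133 came to 0.193% and MIR10B to 5.44% of the mean of BPA muscle. The part of muscle RNA in the MIR10B value of liver 902 was not tested further.

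**Figure D2:**
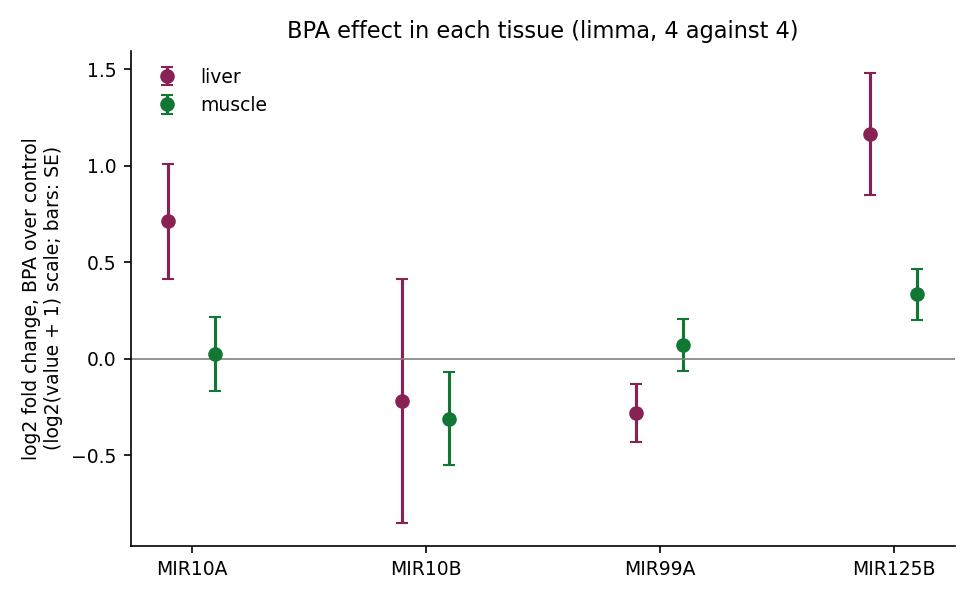
Log2 fold change of BPA over control (log2(value + 1) scale) for each of the 4 miRNAs in liver and in muscle; points are limma estimates from 4 against 4 libraries and bars are 1 SE. MIR125B in liver, at 1.16, is the called value, and the bar of MIR10B in liver is the widest at 0.63.

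In muscle none of the 4 miRNAs passed, nor did any other of 70 miRNAs tested (0% called by limma, with 3 at an unadjusted p under 0.05). MIR125B was at 12162, 13311, 12822 and 11270.2 in controls 902, 908, 924 and 928 and at 15366, 14633, 13652 and 19328 in BPA animals 910, 918, 977 and 984. The groups did not overlap, as for 7.14% of the miRNAs tested in muscle (4.29% with BPA above control). Its log2 fold change was 0.34 ± 0.13 (limma unadjusted p = 0.0235, adjusted p = 0.706), and its p ranked 1 among the 70. Its share of miRNA reads was 1.96% ± 0.081 in control and 2.73% ± 0.57 in BPA muscle (exact permutation p = 0.0286, adjusted 0.0762).

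MIR10B in muscle was at 2741, 2417, 2438 and 2915 in controls and at 2276, 3347, 2288 and 1139 in BPA animals 910, 918, 977 and 984. The groups overlapped, and muscle 984 held less than any other muscle library. The log2 fold change was -0.31 ± 0.24 with all animals (limma adjusted p = 0.841) and -0.01 without muscle 984 (adjusted p = 0.985; 0.507 to 0.985 over all alternatives). In muscle 984 the summed level of the fibroblast and smooth-muscle list (MIR143, MIR199A and MIR21 of 5 list members) was also the lowest, at 8728. Control muscles held 16607 to 29143 and the other BPA muscles up to 22156. Of the list, MIR143 and MIR199A were lowest in muscle 984, at 5653 and 2345. MIR21 was not, at 730 against 699.5 and 672 in control muscles 924 and 928. The part of such cells in the MIR10B value was not tested.

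MIR99A and MIR10A differed in muscle by less than the spread. MIR99A was at 24261, 24461, 20964 and 24836 in controls and at 30657, 24802, 23179 and 21425 in BPA animals, with muscle 910 highest (log2 fold change 0.07 ± 0.14, limma adjusted p = 0.846). MIR10A was at 334 to 526 in controls and 344 to 551 in BPA animals (0.03 ± 0.19, limma adjusted p = 0.967).

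The BPA effects of the 2 tissues were compared in 1 fit over all 16 libraries, in which 2.63% of 76 miRNAs were called, 1.32% in each direction. With the animal as a replicate block 0 were called. None of the 4 miRNAs passed. The interaction, muscle effect minus liver effect on the log2 scale, was -0.83 ± 0.37 for MIR125B (limma adjusted p = 0.242) and -0.69 ± 0.36 for MIR10A (adjusted p = 0.335). It was 0.35 ± 0.19 for MIR99A and -0.09 ± 0.78 for MIR10B (adjusted p = 0.335 and 0.970). MIR10B moved to -0.85 without control 902 (limma adjusted p = 0.371). With 1 size factor over the 4 tables all 4 passed, at -2.66 for MIR10A, -2.05 for MIR10B, -1.62 for MIR99A and -2.80 for MIR125B, where the median of all miRNAs was -1.98 (limma adjusted p = 2.47e-04, 0.0133, 7.98e-04 and 3.48e-05). In that setting 70 miRNAs were called, so the calls are not particular to these 4. Over all alternatives the adjusted p was 2.47e-04 to 0.621 for MIR10A, 0.0133 to 0.991 for MIR10B and 7.98e-04 to 0.590 for MIR99A. A larger BPA effect on MIR125B in liver than in muscle was therefore not shown on the deposited scale with all animals. Without animal 984, whose liver had the least and whose muscle the most MIR125B of the BPA animals, the interaction was -1.19 (limma adjusted p = 0.0289), and without library codes 95 to 97 it was -0.44 (adjusted p = 0.488; 3.48e-05 to 0.488 over all alternatives).

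Library codes in the labels moved with some of these values. Codes 95 and 96 belong to BPA livers 910 and 918, and code 97 to BPA muscle 984. MIR125B was higher in these 3 libraries than in any other library of the same tissue. The same held for MIRLET7C, at 8020.0 and 6126 in livers 910 and 918 against 3044 to 5205 in the other livers, and at 13796 in muscle 984 against 7022 to 9377 in the other muscles. It held too for MIRLET7A, at 31934, 24164 and 46393 in these libraries, with at most 21382 in the other livers and 31716 in the other muscles. Without codes 95 to 97, a setting chosen after the data were seen, the log2 fold change of MIR125B was 0.68 in liver and 0.23 in muscle (limma adjusted p = 0.296 and 0.678). In liver this left BPA animals 977 and 984 only. With the code range (up to 79 or above) as a covariate, a planned setting, MIR125B was at 1.41 in liver. That covariate puts codes 95 and 96 together with the control codes above 100. Within codes up to 79, BPA livers 977 and 984 exceeded control liver 902 by 1.43 on the log2 scale, with 1 control and no test. Codes above 100 hold control livers only, and control muscle has codes 73 to 76 and BPA muscle codes from 77, so that in muscle the effects of treatment and of the order of codes cannot be told apart.

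**Figure D3:**
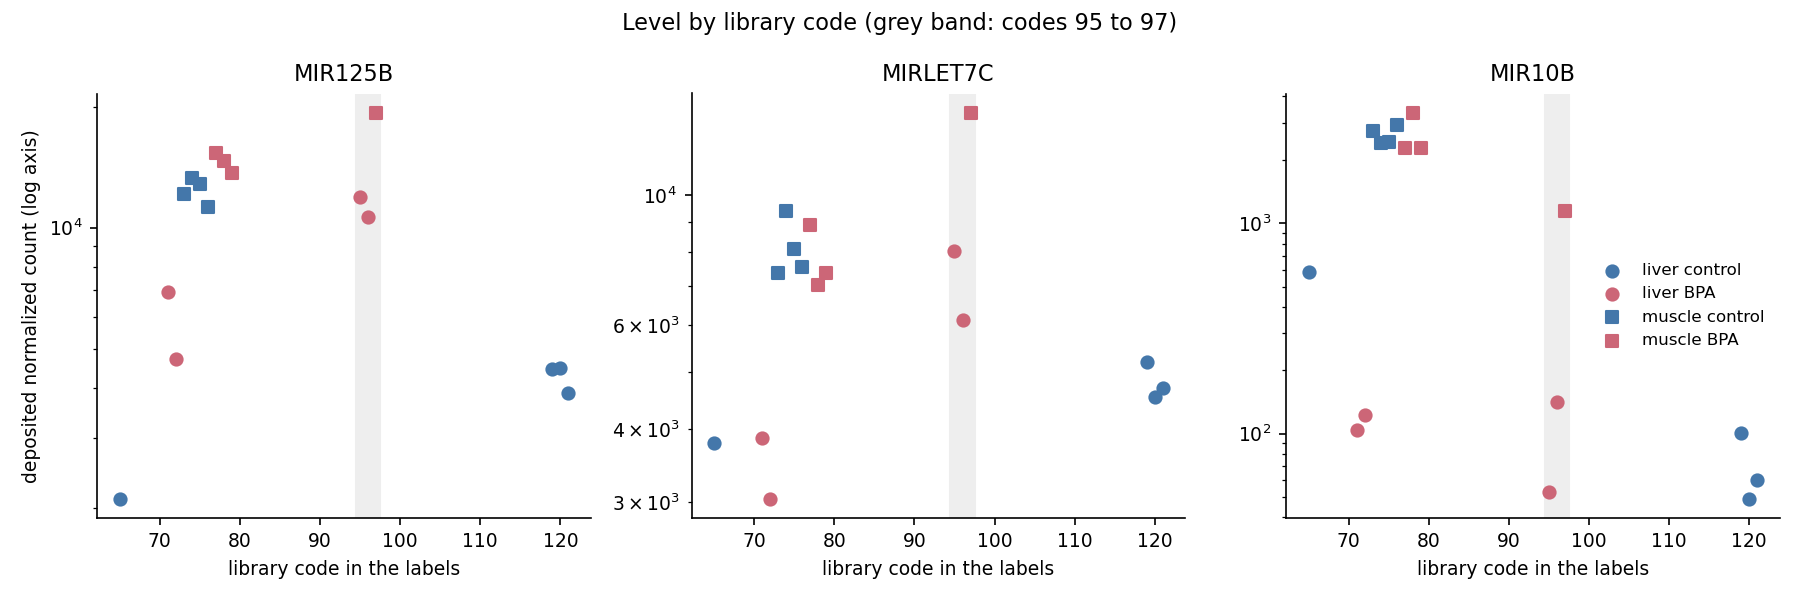
Deposited normalized count (log axis) of MIR125B, MIRLET7C and MIR10B against the library code in the labels; circles are liver, squares muscle, blue control and red BPA. In the grey band, codes 95 to 97, MIR125B and MIRLET7C are above the other libraries of the same tissue, while MIR10B in muscle 984 (code 97) is the lowest muscle value at 1139.

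Ratios within a library do not depend on any size factor. In liver the level of MIR125B relative to MIR99A was 0.0720, 0.110, 0.132 and 0.0963 in controls 902, 908, 924 and 928. It was 0.372, 0.353, 0.249 and 0.169 in BPA animals 910, 918, 977 and 984. The groups did not overlap, and the log2 ratio was higher by 1.44 in BPA livers (-3.32 ± 0.37 and -1.87 ± 0.52, SD; exact permutation p = 0.0286, again the lower limit, and 0.171 after adjustment over 12 tests). Leaving out any 1 liver gave 1.29 to 1.67. The log2 ratio of MIR99A to MIR10A differed by -0.997 in BPA livers, also with no overlap (6.83 ± 0.52 in control and 5.83 ± 0.38 in BPA; exact p = 0.0286, adjusted 0.171). With 12 tests, an exact p at its smallest value for 2 of them could not pass the threshold of 0.05. The other pairs in liver and all 6 in muscle overlapped, with exact p from 0.143 to 0.971. How often ratios of other miRNAs do not overlap was not computed.

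Between the tissues, MIR10B differed most of the 4. After rescaling by median-of-ratios factors over all 16 libraries, MIR10B was at 125 ± 146 in liver (range 39.2 to 478) and at 2998 ± 780.1 in muscle (1342 to 4108; SD, n = 8). Its log2 fold change, muscle over liver, was 5.03 ± 0.40 (SE; limma adjusted p = 7.54e-10), in a fit in which 76% of 75 miRNAs were called, 36% as higher and 40% as lower in muscle. MIR125B was at 4990.4 ± 2731 in liver and 17243 ± 3008 in muscle, and all 8 muscles lay above all livers (1.96 ± 0.18, limma adjusted p = 8.02e-09). On the deposited scale, which is offset by -0.59 on the log2 scale between muscle and liver, these were 4.45 and 1.37 and both still passed.

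MIR10A was called higher in muscle after rescaling, at 518 ± 102 against 349 ± 127 (log2 fold change 0.63 ± 0.18, limma adjusted p = 0.00370). This call was lost on the deposited scale, where the log2 fold change was 0.049, with reads thinned to equal depth, where it was 0.27, and with 1 size factor over the 4 tables, where it was 0.47 (limma adjusted p = 0.808, 0.251 and 0.126; 5.58e-04 to 0.808 over all alternatives). MIR99A was at 26753 ± 4408 in liver and 29844 ± 4121 in muscle, and did not pass (0.16 ± 0.10, limma adjusted p = 0.152). On the deposited scale its log2 fold change was -0.42, and with TMM size factors 0.29, both past the threshold (limma adjusted p = 5.62e-04 and 0.0108; 5.62e-04 to 0.994 over all alternatives), so no direction between the tissues can be given for MIR99A.

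**Figure D4:**
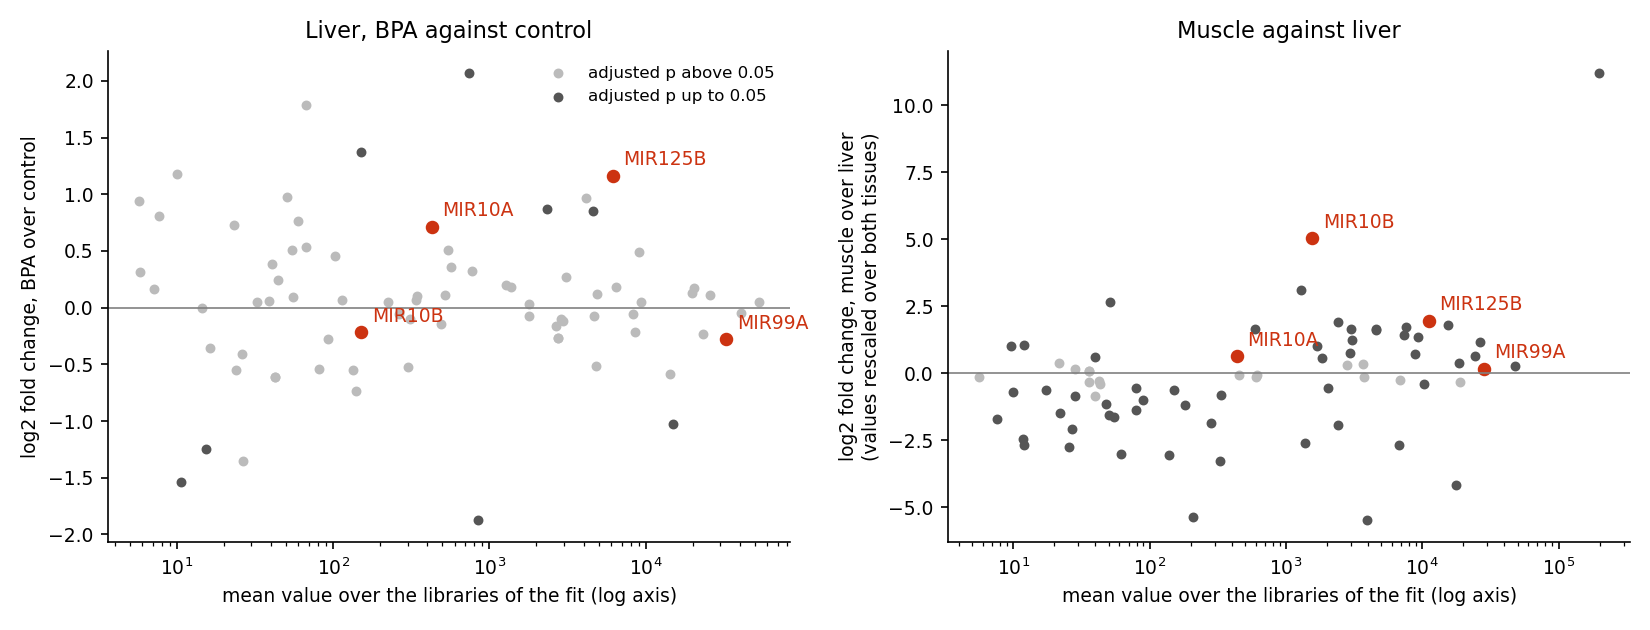
Log2 fold change against mean value (log axis) for all tested miRNAs, in liver for BPA over control (left) and for muscle over liver on rescaled values (right); dark points have a limma adjusted p up to 0.05, and the 4 miRNAs are in red. MIR125B is among the called miRNAs on the left, and MIR10B, at 5.03, and MIR125B, at 1.96, are above 0 on the right.

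The miR-10 paralogues exchanged places between the tissues. MIR10A made up 70.8% ± 22.3 of the reads of MIR10A and MIR10B together in control livers and 82.8% ± 7.3 in BPA livers, against 13.7% ± 1.7 in control and 17.1% ± 5.2 in BPA muscle (SD, n = 4). By animal the share in liver was 37.5% in control 902 and 74.6% to 91.8% in the other 7. In muscle it was 11.7% to 23.2%. The log2 ratio of MIR10A to MIR10B was lower in muscle than in liver in 8 of 8 animals, by 4.41 on average (liver 1.92, muscle -2.50; exact sign-flip p = 0.00781, the smallest possible with 8 animals, and 0.0117 after adjustment over 6 pairs). The ratio of MIR125B to MIR99A was higher in muscle in 8 of 8 animals, by 1.80 ± 0.87 (SD) on the log2 scale (exact p = 0.00781, adjusted 0.0117), and that of MIR99A to MIR10B was lower in 8 of 8, by 4.89 on average (exact p = 0.00781, adjusted 0.0117). That of MIR125B to MIR10A was higher in muscle in 8 of 8, by 1.32 on average (exact p = 0.00781, adjusted 0.0117). The other 2 pairs were not alike in all animals: MIR125B to MIR10B was lower in muscle in 7 of 8, by 3.09 on average (exact p = 0.0156, adjusted 0.0188), and MIR99A to MIR10A in 6 of 8 (exact p = 0.164).

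**Figure D5:**
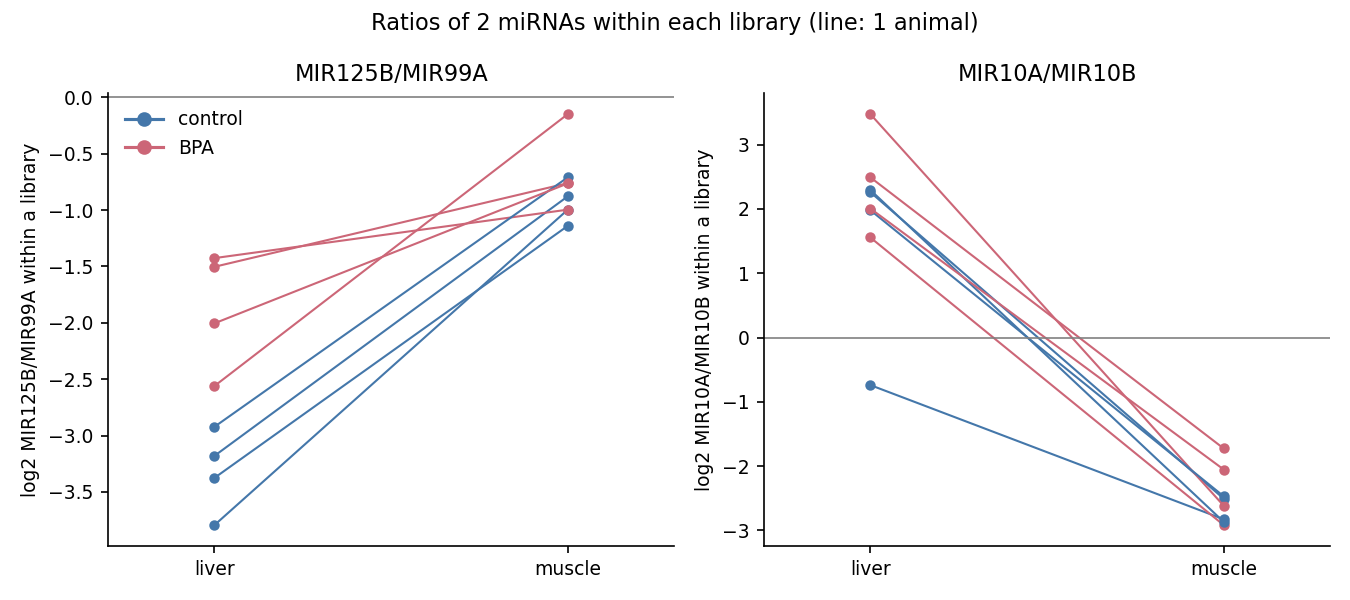
Log2 ratio of MIR125B to MIR99A (left) and of MIR10A to MIR10B (right) within each library; each line joins the liver and muscle of 1 animal, blue for control and red for BPA. In liver the BPA animals lie above the controls on the left, and every line rises on the left and falls on the right; the low liver value on the right, -0.74, is control 902.

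The lncRNA locus that spans MIR125B, LOC105602212, was counted in the lncRNA table and gave many reads. It was picked for its position, after that table had been seen. Its values were 3085, 7743, 7475 and 4810.2 in control livers and 6157, 6824, 7966 and 9568 in BPA livers 910, 918, 977 and 984. The liver groups overlapped (log2 fold change 0.47 ± 0.36, limma adjusted p = 0.336, with 35.5% of 124 lncRNA loci called). Quantile normalization turned the liver value to -0.60, which passed (limma adjusted p = 0.0267; up to 0.847 over the other alternatives), so no direction can be given. The muscle groups overlapped as well (-0.14 ± 0.22, limma adjusted p = 0.762, with 5.3% of 151 called). Per 100 reads of MIR125B the locus had 177 to 326 reads in livers of controls and 42.7 to 129 in livers of BPA animals. In muscle the numbers were 22.2 to 36.7 and 14.1 to 27.8. These are raw reads of different RNA classes, and library make-up differed between the liver groups. With 1 size factor over the 4 tables the median log2 fold change of all miRNAs in liver was 1.51 in place of 0.05. In this ratio library make-up and BPA cannot be told apart. Whether the drop is particular to MIR125B was not tested. In liver the order of the BPA animals by the locus, from 910 up to 984, was the reverse of their order by MIR125B. This did not hold in control livers, where both were lowest in 902, next in 928 and higher in 908 and 924. Between the tissues, after rescaling, the locus was lower in muscle (-1.39 ± 0.22, limma adjusted p = 2.19e-05, with 67.4% of 141 loci called), the opposite direction to MIR125B. Its BPA by tissue interaction did not pass (-0.61 ± 0.46, limma adjusted p = 0.348, with 28.8% of 146 called). It passed in opposite directions with quantile normalization, at 1.84, and with 1 size factor over the 4 tables, at -1.38 (limma adjusted p = 0.0386 and 0.0412; up to 0.672 over the other alternatives). The locus is longer than the miRNA and the table does not say which part of it the reads came from, so they cannot be assigned to the lncRNA itself.

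Of 6 further miRNAs that belong to the same clusters or families in mammals (miR-100, miR-99b, miR-125a, let-7c, let-7a and let-7e), the table holds MIRLET7C and MIRLET7A. Neither passed for BPA, with log2 fold changes of 0.12 ± 0.28 and 0.17 ± 0.25 in liver and 0.15 ± 0.19 and 0.00 ± 0.19 in muscle (limma adjusted p = 0.903, 0.763, 0.841 and 0.987). Both were higher in muscle after rescaling (1.43 ± 0.18 and 1.15 ± 0.16, limma adjusted p = 4.19e-07 and 3.04e-06). MIRLET7C, which neighbours MIR99A, was thus higher in muscle while MIR99A did not pass. The list of other HOX-cluster miRNAs (miR-196a, miR-196b and miR-615) had no row of its name.

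Of the cell type lists, rows were present for 2 of 5 hepatocyte, 1 of 8 striated-muscle and 1 of 3 endothelial members. They were present for 1 of 4 leukocyte and 3 of 5 fibroblast and smooth-muscle members. None of these passed for BPA in either tissue, where 11.5% of all tested miRNAs passed in liver and 0 of 70 in muscle. With so few rows, the cell make-up was not tested. Of the 2 erythroid miRNAs 0 had a row. In the epithelial and bile duct list 1 of 3 tested members rose in BPA livers, where 6.41% of all tested miRNAs were called higher. This was MIR200B, with a limma adjusted p = 7.08e-04 at a log2 fold change of 2.07. MIR200A, at -0.14, and MIR200C, at 0.54, did not pass (limma adjusted p = 0.903 and 0.680), and their liver groups overlapped. MIR200B was at 174 to 453 in control and 979.5 to 1395 in BPA livers, so the summed level of the list, 482 to 1367 and 1504 to 1965, was apart through MIR200B. Its part in the MIR125B result was not tested. Endothelial MIR221 was at 345 to 730.1 in control and 435 to 703 in BPA livers, and leukocyte MIR150 at 199 to 549 and 231 to 493.

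The miRNAs most like each of the 4 were found as those with the smallest root-mean-square distance between centred log2 values over the 8 libraries of a tissue. In liver MIR125B was most like MIR191, at a distance of 0.14 log2 units, then MIR25 at 0.25 and MIR370 at 0.29, against a median of 0.81 over 77 miRNAs. MIR191 itself had a log2 fold change of 0.96 ± 0.31 in BPA livers (limma adjusted p = 0.0582). MIR25 was called higher, at 0.87 ± 0.25, and MIR370 did not pass, at 0.77 ± 0.39 (limma adjusted p = 0.0417 and 0.263). The distances were taken over control and BPA livers together, so miRNAs near MIR125B tend to share its rise by selection. Their fold changes are therefore no separate result. MIR99A was most like MIRLET7G, MIRLET7B and MIR181A-1 in liver (0.12 to 0.20, median 0.47). MIR10A was most like MIR199A, MIR495 and MIR433 (0.35 to 0.46, median 0.65), and MIR10B most like MIR133, MIR218A and MIR362 (0.67 to 0.84, median 1.16). The distance of each miRNA from a flat profile was 0.76 for MIR125B, 0.20 for MIR99A, 0.52 for MIR10A and 1.06 for MIR10B. For MIR99A and MIR10A the farthest of the listed miRNAs was thus little nearer than a flat profile. These distances share the depth difference between the liver groups.

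In muscle the nearest miRNAs were others in each case. MIR125B was most like MIR382, MIR16B and MIR127 (0.11 to 0.14 log2 units, median 0.34 over 69 miRNAs), and MIR10B most like MIR379, MIR374B and MIR152 (0.20 to 0.23, median 0.55). MIR99A was most like MIR23A, MIR21 and MIR148A (0.11 to 0.15, median 0.32), and MIR10A most like MIR22, MIR26A and MIR30D (0.20 to 0.21, median 0.40). The distance from a flat profile was 0.22 for MIR125B, 0.43 for MIR10B, 0.16 for MIR99A and 0.25 for MIR10A. For MIR99A and MIR10A this was not far above the distances to the listed miRNAs, so their likeness was weak.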

How the data were processed

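Small RNA libraries were made with a NEBNext small RNA kit from total RNA, per the labels' protocols. Tools listed in the submitters' processing notes, with no role, are featureCounts 1.6.1, STAR 2.6.0c and cutadapt 3.2. The sources used here do not give the genome build, annotation or normalization tool. Values deposited by the authors are normalized counts (a signal per miRNA), each found to be a whole multiple of 1 step per library (100% of values, tolerance 0.001), so reads were recovered by division. The miRNA table holds too few low values for a further check on recovered reads. Its read numbers and binomial intervals therefore assume that 1 step is 1 read. In each tissue alone the libraries shared 1 median-of-ratios scale, so the authors' size factors were set per tissue.

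miRNAs with a mean value of at least 5 in a fit were tested on log2(value + 1) with limma 3.58.1 in R 4.3.3 (trended prior variance, two-sided), with Benjamini-Hochberg adjustment over all tested miRNAs and a threshold of 0.05. The fit was tested on simulated data. Fold changes on this scale understate the change of low miRNAs. Tissues were compared after median-of-ratios rescaling. Shares and ratios were tested exactly with scipy 1.17.1. Members, lists and named miRNAs were chosen with earlier results of these data known: all 4 members, detected list members, and the 3 miRNAs nearest each member per tissue. Gene names and neighbours come from RefSeq's ARS-UI_Ramb_v3.0 table, in which all 105 miRNAs matched; the authors' build may differ.

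An animal's number links its liver and muscle library. Their deviations from the group means correlated by -0.68 to 0.44 over 76 miRNAs, and in 0 of 8 animals was the own muscle the closest. A blocked fit by animal was an alternative. Libraries of a group differed by more than sampling noise (chi-square over degrees of freedom at least 18.2). No miRNA sequence is printed, as no sequence table was used here.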

Additional observations from a re-analysis of the deposited data

Results flagged for a closer look

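Of 60 sets of 4 values examined, 5 held a library far from the other 3 by Dixon's criterion, while chance gives about 1 in 20. Of these, 3 are the same library, control liver 902, for MIR10B: its value of 584, its share of 0.177% of miRNA reads and its log2 ratio of MIR10A to MIR10B of -0.74. For MIR99A the low value of 20964 in control muscle 924 and the high share of 5.84% of miRNA reads in BPA muscle 910 were flagged the same way. In the main fit with all animals no interaction of BPA and tissue passed for the 4 miRNAs. All 4 passed with 1 size factor over the 4 tables, where 70 miRNAs were called, and MIR125B passed without animal 984.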

How the results depend on the processing

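With 1 size factor over the 4 tables, the median log2 fold change of all miRNAs in liver moved from 0.05 to 1.51, MIR10A, MIR10B, MIR99A and MIR125B were at 2.18, 1.23, 1.19 and 2.63, and 68 miRNAs were called. Relative to that median MIR125B was at 1.12, against 1.11 as deposited. In muscle the median was -0.21, with MIR10A at -0.20 and MIR99A at -0.15. In the interaction the median was -1.98, with MIR10A, MIR10B, MIR99A and MIR125B at -2.66, -2.05, -1.62 and -2.80 and 70 called. Between tissues MIR10A was at 0.47 and lost its call. Other interaction counts were 4 with quantile normalization and 0 with thinned reads. With the replicate block of animals 0 miRNAs were called in the interaction, and the block changed no other call for the 4 miRNAs. Quantile normalization put MIR10A in muscle at -0.0486, MIR10B in the interaction at 0.44 and MIR99A between tissues at -0.32. Between tissues MIR99A was at 0.29 with TMM, -0.14 with thinned reads and -0.42 on the deposited scale, and MIR10A at 0.27 and 0.0493 with the latter 2. With the code range as a covariate 19 miRNAs were called in liver, and MIR125B was at 1.41. Within codes up to 79 MIR10B was at -2.36 and MIR99A at -0.0777. Without codes 95 to 97, 3 miRNAs were called, MIR125B was at 0.68 in liver and MIR10B at 0.0105 in the interaction. The locus LOC105602212 was at -0.60 (quantile) and -0.0736 (thinned) in liver, 0.20 (TMM) and 0.0318 (without codes 95 to 97) in muscle, and 1.84 (quantile) and 0.29 (thinned) in the interaction. The causes of these shifts were not tested. Leaving out 1 animal at a time gave, in liver, -0.62 to 0.56 for MIR10B, 0.91 to 1.42 for MIR125B and 4 to 15 calls (4 without BPA 918, 5 without BPA 910, 15 without BPA 984). In muscle it gave -0.10 to 0.14 for MIR10A, -0.0298 to 0.14 for MIR99A and -0.23 to 0.0318 for LOC105602212. In the interaction it gave -0.85 to 0.31 for MIR10B, -1.19 to -0.58 for MIR125B and 0 to 9 calls (9 without animal 984, 0 without 910, 918, 924 or 928 and 1 without 902, 908 or 977). The planned count tests (edgeR, DESeq2) on the miRNA table were not run, since the table holds too few low values for the check on recovered reads. MIR10B in control livers rests on the fewest reads of the 4 miRNAs, 19 to 167.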
